A study of Homo sapiens with 4 samples.

Results

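The genes described here are 35 named components of the endoplasmic reticulum (ER): chaperones, disulfide enzymes, degradation factors, stress sensors and parts of the protein entry and export machinery. The list was set with earlier results of these data known. Its transcript clusters on the array were found by current or older gene symbol. Of the 35, 34 had a cluster naming that gene alone, out of 22393 genes named on the array, and all 34 were among the 16790 genes tested after the dimmest 25% were left out. HSP90B1, the ER member of the HSP90 chaperones, was covered by a cluster that also names a microRNA gene, so no value is given for it. DNAJB11 had a pair of clusters and the brighter one stands for it.

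RNA of 4 cell cultures was hybridised to 4 human transcriptome arrays, so each line had 1 treated and 1 untreated array. The groups were OPM2 cells given KPT-9274 for 48 h, control OPM2 cells, KMS11-labelled cells given KPT-9274 for 48 h, and control KMS11-labelled cells. Control cells are called untreated here, though the labels do not say whether they were given vehicle. Both line names are those of human multiple myeloma lines, and KPT-9274 is a small molecule with a pair of known targets, the enzyme NAMPT, which recycles NAD, and the kinase PAK4. The labels give neither the dose nor the time in culture of the untreated cells, so time and compound cannot be told apart, and each line is a single culture per condition.

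The KMS11 label goes against the marker genes. Of 10 plasma cell markers, 6 lay above background on the treated and 7 on the untreated OPM2 array, against 4 on each KMS11-labelled array. Of 8 myeloid markers, 6 lay above background on each KMS11-labelled array, against 0 on the treated and 2 on the untreated OPM2 array, and of 6 measured erythroid markers 5 did so on each KMS11-labelled array, against 0 and 1. The median log2 signal of the plasma cell markers was 8.5 on the treated and 9.75 on the untreated OPM2 array, against 6.32 and 6.12 on the KMS11-labelled arrays, and that of the myeloid markers 5.72 and 5.48, against 12.06 and 11.32. The T cell and fibroblast markers measured were under background on all 4 arrays. Background means the 95th percentile of 392 olfactory receptor genes, a log2 signal of 7.65 on the treated and 6.81 on the untreated OPM2 array, and of 6.56 on the treated and 6.45 on the untreated KMS11-labelled array. The arrays are therefore called KMS11-labelled, and the part these marker differences play in any line difference below was not tested.

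Proteins bound for secretion or for membranes enter the ER through the SEC61 channel, are folded there by BiP and its partners, receive disulfide bonds from the PDI family, and, when folding fails, are pulled back to the cytosol for degradation. Plasma cells carry a very large secretory load, and the unfolded protein response matches ER capacity to it through the sensors ATF6, IRE1 and PERK. IRE1, encoded by ERN1, splices the messenger of XBP1, and XBP1 and ATF6 act on promoters of ER genes.

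Several of these promoters hold the response element that ATF6 and XBP1 are known to use together with NF-Y. RefSeq promoter windows (GRCh38.p14, 250 bases before to 50 after the annotated start) were found for 31 of the 35 genes and searched on both strands. Only 1 window a gene was used, the one with the lowest coordinate where there were several. It need not be the main start of the gene, and elements at other starts are not counted. The ER stress element ERSE, which is CCAAT, any 9 bases and then CCACG, occurred in 6 of the 31 windows (19.4%), against 22 of all 27305 windows (0.081%). The shorter ERSE-II, which is ATTGG, any 1 base and then CCACG, occurred in 3 of the 31 (9.68%) and in 17 of all windows (0.062%). The element UPRE, TGACGTGG, occurred in 4 of the 31 and in 208 of all windows (0.762%), the 4 being HYOU1, SSR3, TXNDC11 and TXNDC5. The letters CCACG end both ERSE and ERSE-II and are also read on the opposite strand of UPRE. Alone they occurred in 21 of the 31 windows and in 37.5% of all. A match is a description of these letters only. Only exact matches were counted and marked. Near matches inside the windows were left out, such as a stretch in the HSPA5 window that differs from ERSE by its last base. The matched stretches are shown because 8 of the 9 genes holding them have values on the arrays. They are written 5′ to 3′ on the gene's strand, with the fixed letters of the element in capitals, so that an element read on the opposite strand starts with CGTGG.
HSPA5: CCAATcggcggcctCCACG
PDIA6: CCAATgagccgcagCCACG
CALR: CGTGGtcgaccatcATTGG
CRELD2: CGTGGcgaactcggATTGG
ERO1B: CGTGGtcccgcctcATTGG
HSP90B1, distal: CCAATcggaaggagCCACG
HSP90B1, proximal: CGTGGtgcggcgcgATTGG
HERPUD1: ATTGGgCCACG
SDF2L1: CGTGGaCCAAT
HYOU1, both copies: CGTGGtCCAAT

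The exact ERSE match of HSPA5 lies at chr9:125241391-125241409, 66 to 48 bases before the start. That of PDIA6 lies at chr2:10812853-10812871, 86 to 68 bases before it, and that of CRELD2 at chr22:49918554-49918572, 80 to 62 bases before it. CALR and ERO1B hold theirs farther out, at chr19:12938384-12938402 and chr1:236282183-236282201, which begin 225 and 243 bases before the start. The ERSE-II of HERPUD1 lies at chr16:56932025-56932035, that of SDF2L1 at chr22:21642114-21642124, and the 2 identical ones of HYOU1 at chr11:119057380-119057390 and chr11:119057274-119057284. HSPA5, HERPUD1 and HYOU1 are given as whole windows, since the first and second read in opposite directions in the lines after treatment and the third holds 2 copies. The windows are chr9:125241294-125241593 on the minus strand, chr16:56931892-56932191 on the plus strand and chr11:119057156-119057455 on the minus strand, with the same capitals.
HSPA5: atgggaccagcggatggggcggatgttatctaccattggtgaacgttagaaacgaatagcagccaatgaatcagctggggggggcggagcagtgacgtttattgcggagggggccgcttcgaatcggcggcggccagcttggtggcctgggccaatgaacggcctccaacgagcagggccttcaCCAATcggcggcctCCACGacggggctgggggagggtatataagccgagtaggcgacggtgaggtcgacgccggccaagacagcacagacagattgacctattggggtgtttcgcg
HERPUD1: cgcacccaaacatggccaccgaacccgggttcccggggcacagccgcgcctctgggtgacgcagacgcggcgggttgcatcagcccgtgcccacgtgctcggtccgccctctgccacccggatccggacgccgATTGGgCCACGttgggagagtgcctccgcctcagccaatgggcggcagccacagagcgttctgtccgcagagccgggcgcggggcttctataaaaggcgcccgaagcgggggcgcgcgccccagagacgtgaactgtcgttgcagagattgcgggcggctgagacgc
HYOU1: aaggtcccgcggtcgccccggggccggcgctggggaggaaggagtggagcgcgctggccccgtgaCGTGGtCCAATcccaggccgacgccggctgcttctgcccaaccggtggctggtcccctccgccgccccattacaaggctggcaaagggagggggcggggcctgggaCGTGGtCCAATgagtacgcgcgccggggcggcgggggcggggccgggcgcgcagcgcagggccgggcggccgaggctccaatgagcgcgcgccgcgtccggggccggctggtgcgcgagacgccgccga

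**Figure D1:**
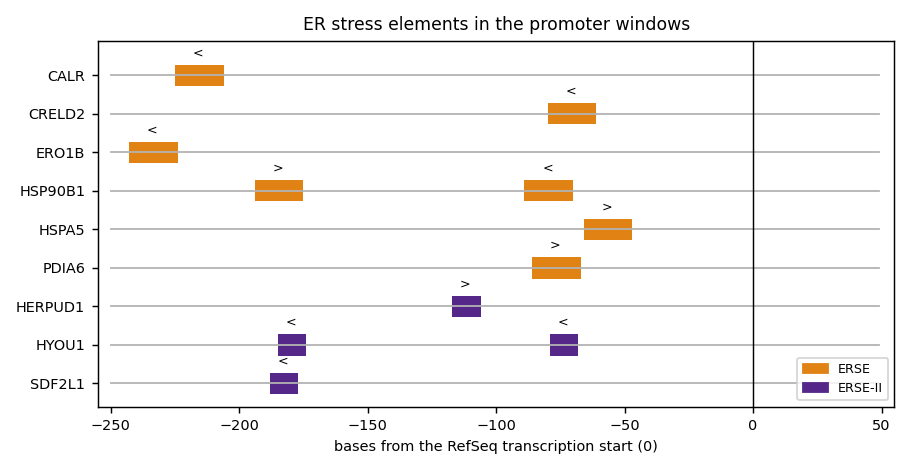
Position of exact ERSE and ERSE-II matches in the RefSeq promoter windows of the 9 listed genes that hold any, in bases from the annotated start. The sign > marks a match on the gene's strand and < a match on the opposite strand. HSP90B1 and HYOU1 hold 2 each, and the ERSE of HSPA5 sits 66 to 48 bases before the start.

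The first comparison asks how the ER genes differ between OPM2 and the KMS11-labelled cells, over treated and untreated arrays together. Degradation, disulfide and translocation genes made up most of those higher in OPM2: HERPUD1, DERL1, DERL3, TXNDC5, TXNDC11, SRPRB, SEC61A1, the BiP cochaperone DNAJB11 and the sensor ERN1. DNAJC3, ERO1B and SSR1 were lower in OPM2. That made 9 of 34 higher in OPM2 by limma at an adjusted p below 0.05 over all genes tested (26.5%), against a background of 8.28% of all genes, and 3 lower (8.82%), against 10.8%. The median log2 difference of the 34 was 0.38, against 0.09 over all genes. Both OPM2 arrays lay above both KMS11-labelled arrays for 19 of the 34 genes, against 32.8% of all genes, and below them for 7, against 27.1%. These counts include values under background, as on the treated OPM2 array for CRELD2 and DERL3 among the 19 and ERO1B among the 7. All genes include many dim ones, while 24 of the 34 were among the brightest 25% of tested genes and 0 among the dimmest 25%. Over that brightest 25% the median difference was -0.06, against 0.42 for the 24. Shares of line calls among genes of like signal were not computed, so the excess over all genes is not read as particular to the 34. In bulk RNA fewer cells of a type and less RNA per cell cannot be told apart. With 1 array per condition, the only spread behind a p-value is the difference between the treatment responses of the lines. Limma moderates it with the spread over all genes. Spread between cultures of a line is not measured.

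HERPUD1, a membrane protein that organises the degradation complex, had the widest difference of the 34. Its log2 signal was 13.86 on the treated and 13.30 on the untreated OPM2 array, against 10.09 on the treated and 11.18 on the untreated KMS11-labelled array. The groups did not overlap, and the log2 difference was 2.95 (limma SE 0.46, adjusted p = 0.0303), a 7.70-fold difference. DERL1, a membrane component of the retrotranslocation channel, read 12.41 and 12.23 in OPM2, treated then untreated, against 10.14 and 10.51 in KMS11-labelled cells, a log2 difference of 2.00 (SE 0.22, adjusted p = 0.0176). Its relative DERL3, the Derlin abundant in secretory tissue, read 7.61 and 8.38 in OPM2, treated then untreated, against 6.15 and 6.37 on KMS11-labelled arrays, with only the untreated OPM2 value above background. On the untreated arrays DERL3 was therefore higher in OPM2 by at least 1.93 log2 units, and the treated arrays give no bound. The fit to the values as deposited, with 3 of the 4 under background, gave 1.74 (adjusted p = 0.0221). DERL2, the third Derlin, read 9.12 and 9.40 in OPM2 and 9.16 and 9.47 in KMS11-labelled cells, a difference of -0.06 (SE 0.17, adjusted p = 0.848), with overlapping lines. Of the other degradation genes, the HRD1 partner SEL1L had a log2 difference of 1.24 (adjusted p = 0.0551), the ligase SYVN1 0.37 (0.223), and the mannosidase-like lectins EDEM2 0.41 (0.261) and EDEM1 -0.83 (0.133), none past the threshold by limma.

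Among the disulfide enzymes, TXNDC5, a PDI relative abundant in plasma cells, read 14.71 and 15.29 in OPM2, treated then untreated, against 12.70 and 13.32 in KMS11-labelled cells. TXNDC11, a transmembrane thioredoxin-like protein that works with EDEM proteins, read 11.31 and 12.14 in OPM2 against 9.88 and 10.29 in KMS11-labelled cells. Neither gene overlapped between lines, and their log2 differences were 1.99 (SE 0.17, adjusted p = 0.0127) and 1.64 (SE 0.21, adjusted p = 0.0211). The oxidases that recharge PDI had differences of opposite sign. ERO1A read 12.49 and 14.00 in OPM2 against 11.59 and 12.24 in KMS11-labelled cells, a difference of 1.33 that missed the threshold (SE 0.28, adjusted p = 0.0526), while ERO1B read 7.48 and 7.59 against 8.50 and 8.43, a difference of -0.93 (SE 0.18, adjusted p = 0.0447). ERO1B was not above background on the treated OPM2 array, and with that value raised to background its difference was -0.85. PDIA4 had a difference of 1.35 (SE 0.39, adjusted p = 0.0939), PDIA3, which works on glycoproteins, -0.72 (adjusted p = 0.107) and PDIA6 -0.22 (adjusted p = 0.528).

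The chaperones did not share a direction. DNAJC3, a BiP cochaperone also known as an inhibitor of eIF2 alpha kinases, read 10.60 and 10.97 in OPM2, treated then untreated, against 13.09 and 12.74 in KMS11-labelled cells. It was 4.38-fold lower in OPM2, a log2 difference of -2.13 (SE 0.25, adjusted p = 0.0194). DNAJB11, another BiP cochaperone, read 10.59 and 11.47 in OPM2 against 9.54 and 9.52, a difference of 1.5 (SE 0.29, adjusted p = 0.0441). Its dimmer cluster read 8.33 and 8.87 in OPM2 against 8.66 and 8.09, with overlapping lines, and the mean of both clusters gave 0.86 (adjusted p = 0.141), so the call rests on the brighter one. HSPA5, which encodes BiP, the main ER chaperone of the HSP70 family, read 15.23 and 15.76 in OPM2 against 15.42 and 14.82 in KMS11-labelled cells. The lines overlapped, and the difference was 0.38 (SE 0.34, adjusted p = 0.487). HYOU1, the nucleotide exchange factor of BiP, had a difference of -1.03 (SE 0.21, adjusted p = 0.0504), just short of the threshold. The lectin chaperones CALR and CANX, which hold glycoproteins while they fold, had -0.58 and -0.49 (adjusted p = 0.223 and 0.181), and DNAJB9, SDF2L1, MANF and CRELD2 had differences of 0.17 to 0.59 with adjusted p of 0.136 or more.

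At the entry to the ER, SRPRB, the membrane subunit of the signal recognition particle receptor, read 10.09 and 10.36 in OPM2, treated then untreated, against 8.6 and 8.64 in KMS11-labelled cells (difference 1.61, SE 0.18, adjusted p = 0.0183). SEC61A1, the pore subunit of the channel, read 12.45 and 12.84 against 11.47 and 12.03 (difference 0.90, SE 0.18, adjusted p = 0.0477). SSR1, a subunit of the TRAP complex beside the channel, read 12.40 and 12.90 in OPM2 against 13.45 and 13.75 in KMS11-labelled cells, lower by 0.95 (SE 0.18, adjusted p = 0.0435). None of these genes overlapped between lines, and their partners SEC61B (0.45) and SSR3 (0.45) did not pass (adjusted p = 0.181 and 0.165). The signal peptidase subunit SPCS3 (-0.12) and the COPII cargo adaptor SEC24D (-0.18) overlapped between lines. ERN1, the IRE1 sensor, read 9.51 and 8.47 in OPM2 against 8.04 and 7.5 in KMS11-labelled cells (difference 1.22, SE 0.22, adjusted p = 0.0383), and ATF6, the sensor cut in the Golgi, had 0.39 (adjusted p = 0.332).

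Of the 12 line calls, 7 held under all 8 alternative settings: HERPUD1, DERL1, DERL3, TXNDC5, TXNDC11, SRPRB and DNAJC3. DERL3 was above background on only 1 array, and none of the 8 settings raised values to background. The other 5, DNAJB11, ERO1B, ERN1, SEC61A1 and SSR1, were each lost under at least one setting. In turn, 5 genes not called here were called under some of the 8: HYOU1 and ERO1A under 4, SEL1L under 3, PDIA4 under 2 and PDIA3 under 1. On the untreated arrays alone the median difference of the 34 was 0.53, and on the treated arrays alone 0.25.

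**Figure D2:**
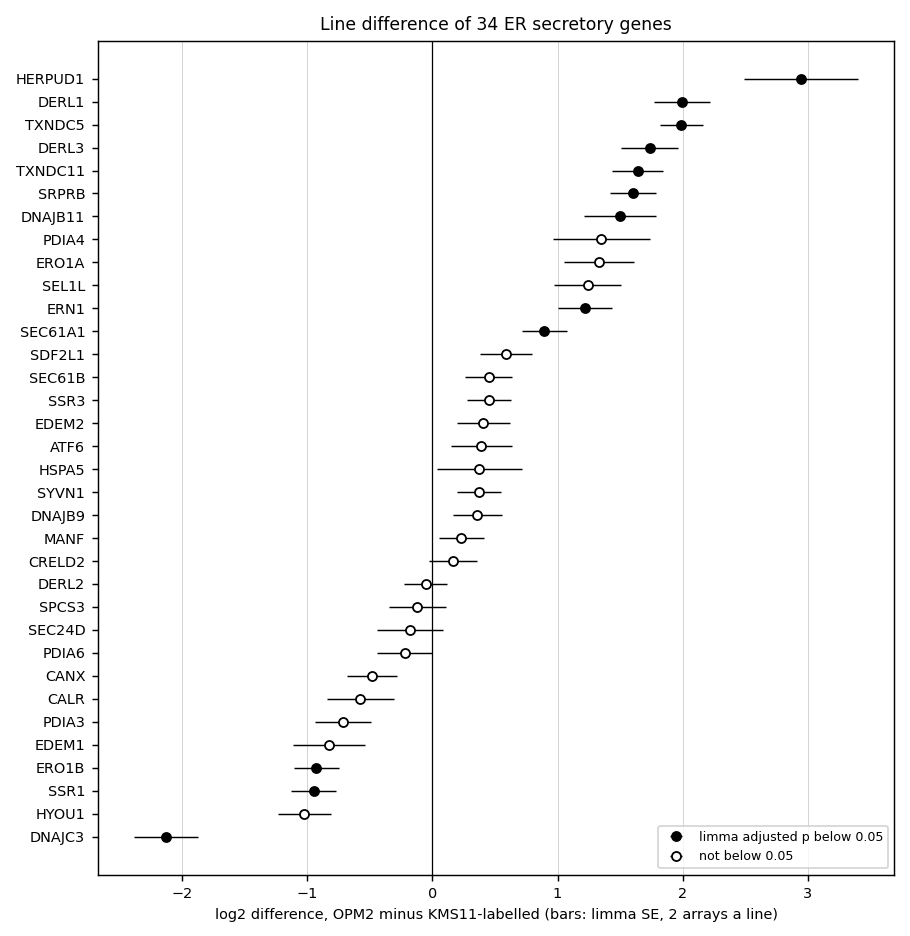
Log2 difference, OPM2 minus KMS11-labelled, of each of the 34 genes, with the limma standard error as bars. Filled points passed an adjusted p of 0.05: 9 are above 0, led by HERPUD1 at 2.95, and 3 are below, led by DNAJC3 at -2.13.

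**Figure D3:**
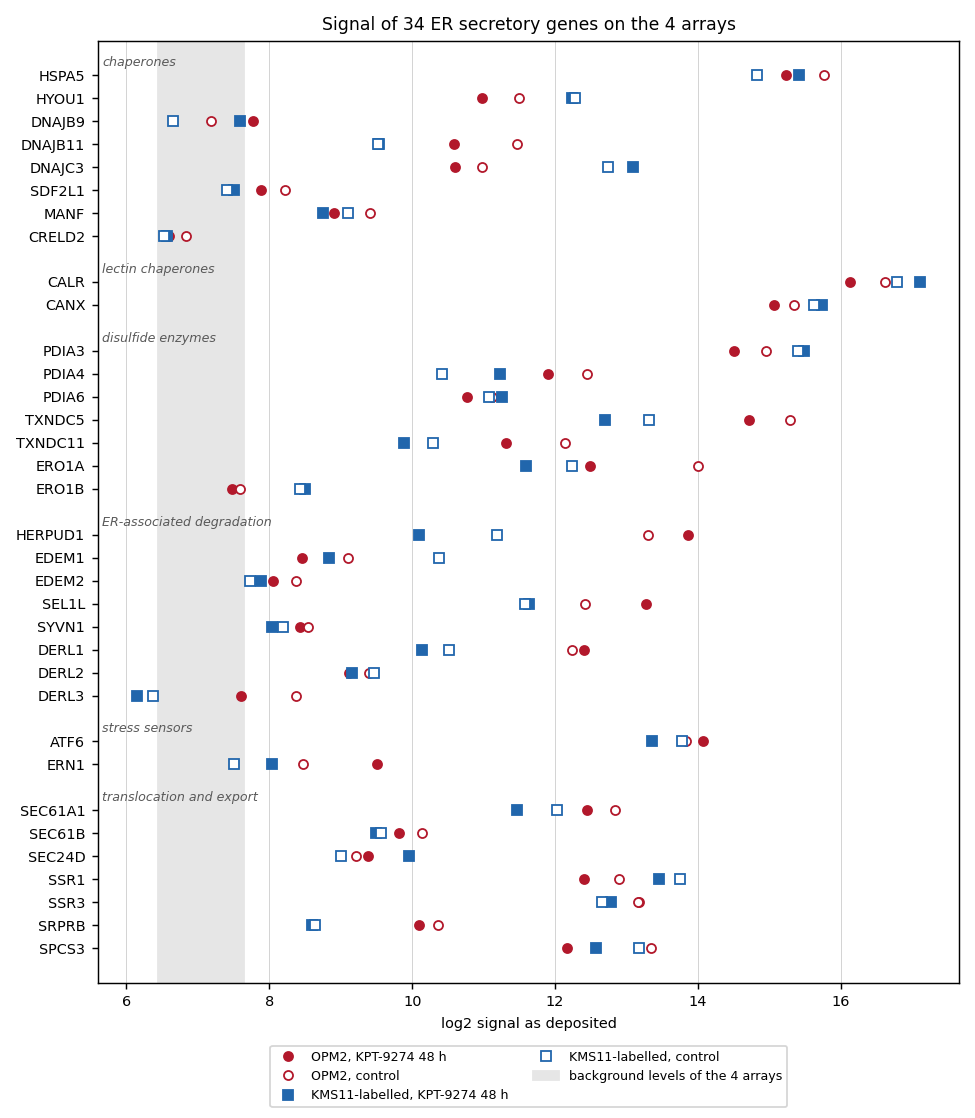
Log2 signal of the 34 genes on the 4 arrays, grouped by role, with treated cells as filled and untreated cells as open symbols. The grey band spans the background levels of the arrays, 6.45 to 7.65, and holds, among others, CRELD2 and the OPM2 values of ERO1B.

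The main comparison asks how these transcripts differed after 48 h of KPT-9274. By limma, 0 of the 34 genes were called higher and 0 lower, nor was any of the 16790 genes called (0%), the smallest adjusted p being 0.325. Unadjusted, a p under 0.05 was reached by 7 of the 34, DNAJB9 and ERN1 being higher and TXNDC5, TXNDC11, ERO1A, EDEM1 and SPCS3 lower, and by 2119 of all genes, 666 of them higher and 1453 lower. Changes are therefore given as values of single arrays, treated minus untreated. In OPM2, 26 of the 34 genes read lower after treatment, against 47.5% of all genes, with a median log2 change of -0.35, against 0.03 over all genes. In KMS11-labelled cells 17 read lower, against 44.4%, with a median of -0.01, against 0.04. Values under background hide the direction of a change for CRELD2 and ERO1B in OPM2, for DERL3 in KMS11-labelled cells, and for many of all genes. Over genes with a readable direction, 24 of 32 read lower in OPM2 (75.0%), against 68.4% of 7821 genes, and 16 of 33 in KMS11-labelled cells (48.5%), against 54.2% of 10676 genes. The share of the listed genes thus lay near that of all readable genes in each line.

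Bright genes as a whole read lower on the treated OPM2 array, which also had the highest background. Over the 25% of tested genes with the highest mean signal the median change in OPM2 was -0.23, with 65.8% of genes lower. The 24 listed genes among them had a median of -0.38, and 18 of the 24 were lower. The part of signal level in the OPM2 values was not tested. After cyclic loess the medians in OPM2 were -0.38 for the 34 genes and -0.18 for all genes, after quantile normalization -0.41 and -0.17, and after median centring -0.51 and -0.13. In KMS11-labelled cells the same bright genes had a median of 0.01, and the 24 had -0.04. The median of the 34 there turned to 0.13 under quantile normalization, with 13 lower, and to 0.05 after cyclic loess, with 14 lower, and was -0.03 after median centring, with 17 lower.

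By role, counting only readable directions, all 6 disulfide enzymes, both lectin chaperones and 6 of 7 chaperones read lower in OPM2, DNAJB9 being the exception, against 68.4% of all readable genes. With CRELD2 and ERO1B included, these roles had median log2 changes of -0.44 (chaperones), -0.38 (lectins) and -0.55 (disulfide enzymes). In KMS11-labelled cells 3 of the 7 disulfide enzymes, 0 of the lectins and 2 of the 8 chaperones read lower, against 54.2%, with medians of 0.07, 0.22 and 0.08. Of the degradation genes, 5 of 8 read lower in OPM2 and 5 of the 7 readable ones in KMS11-labelled cells (medians over all 8 of -0.20 and -0.27). Of the 7 translocation and export genes, 5 read lower in each line (medians -0.32 and -0.06), and both sensors read higher in OPM2. Signs this small turned for HYOU1, DNAJB11, SYVN1, SEC61B and SRPRB in KMS11-labelled cells and for SSR3 in OPM2 under at least 1 other scaling, while the other 62 of 68 changes kept theirs.

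At least 2-fold changes were few and near the background. In OPM2, ERN1 was the 1 gene higher, against 2.51% of all genes, and ERO1A and SPCS3 were the 2 lower, against 5.52%. In KMS11-labelled cells 0 were higher, against 1.64%, and HERPUD1 and EDEM1 were the 2 lower, against 4.43%. None was 2-fold higher in both lines, against 0.328%, or 2-fold lower in both, against 1.19%.

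Of the genes with a common direction, 14 were lower in both lines (27.9% of all genes) and 5 higher in both (34.9%). Over genes readable in both lines, 13 of 31 were lower in both (41.9%), against 43.4% of 7443 genes. ERO1A, the oxidase that drives disulfide formation, read 12.49 on the treated against 14.00 on the untreated OPM2 array, and 11.59 against 12.24 on the KMS11-labelled arrays. The log2 changes were -1.51 and -0.65, a mean of -1.08 (limma SE 0.28, adjusted p = 0.347). EDEM1, which extracts misfolded glycoproteins for degradation, read 8.46 against 9.10 in OPM2 and 8.84 against 10.37 in KMS11-labelled cells, changes of -0.64 and -1.53 (mean -1.09, SE 0.29, adjusted p = 0.35). Treated cells thus read lower than untreated cells of their own line for both genes. SPCS3 read 12.17 against 13.34 in OPM2 and 12.57 against 13.18 in KMS11-labelled cells, changes of -1.17 and -0.61 (mean -0.89, SE 0.23, adjusted p = 0.343). TXNDC5 had changes of -0.58 in OPM2 and -0.62 in KMS11-labelled cells as deposited, and of -0.87 and -0.56 under quantile normalization. TXNDC11 had -0.83 and -0.41. Their adjusted p over both lines was 0.358 for TXNDC5 and 0.373 for TXNDC11. SEC61A1 had -0.39 and -0.56, MANF, a secreted ER stress protein, -0.51 and -0.35, SSR1 -0.50 and -0.30, and DERL2 -0.28 and -0.31. HYOU1 had -0.51 in OPM2 and -0.04 in KMS11-labelled cells, SRPRB -0.27 and -0.04, SEC61B, a small subunit of the channel, -0.32 and -0.06, and SYVN1 -0.11 and -0.15. DERL3 was lower by at least 0.73 in OPM2 and not above background in KMS11-labelled cells.

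ERN1, DNAJB9, SEL1L, SEC24D and SSR3 read higher after treatment in both lines, SSR3 by 0.01 and 0.13 and with its OPM2 value turning to as low as -0.15 under other scalings. ERN1 read 9.51 on the treated against 8.47 on the untreated OPM2 array, and 8.04 against 7.5 on the KMS11-labelled arrays. Its changes of 1.04 and 0.54 gave a mean of 0.79 (SE 0.22, adjusted p = 0.354), and under median centring the OPM2 change was 0.88. DNAJB9, a BiP cochaperone known to restrain IRE1, read 7.77 against 7.19 in OPM2 and 7.59 against 6.65 in KMS11-labelled cells, changes of 0.58 and 0.94 (mean 0.76, SE 0.20, adjusted p = 0.346). SEL1L read 13.27 against 12.42 in OPM2, a change of 0.85, and 11.63 against 11.58 in KMS11-labelled cells, a change of 0.05. SEC24D had the opposite balance, 9.38 against 9.21 in OPM2 and 9.95 against 9.0 in KMS11-labelled cells, changes of 0.17 and 0.95.

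Opposite signs of change in the lines were read for some of the folding genes. Read lower in OPM2 and higher in KMS11-labelled cells were 12 of the 34 genes (35.3%), against 19.2% of all genes: HSPA5, DNAJB11, DNAJC3, SDF2L1, CRELD2, CALR, CANX, PDIA3, PDIA4, PDIA6, ERO1B and EDEM2. These are chaperones, lectins and disulfide enzymes but for EDEM2. Without CRELD2 and ERO1B, whose OPM2 direction is hidden by background, they were 10 of 31 (32.3%), against 24.1% of the genes readable in both lines. By role these were 4 of 7 readable chaperones, both lectins, 3 of 6 disulfide enzymes and 1 of 7 degradation genes. The background moved with the scaling, to 35.1% of all genes under quantile normalization, where 17 of the 34 went that way, 30.6% (15) after cyclic loess and 27.1% (12) after median centring. HSPA5 read 15.23 on the treated against 15.76 on the untreated OPM2 array, a change of -0.53, and 15.42 against 14.82 on the KMS11-labelled arrays, a change of 0.60. PDIA4 read 11.90 against 12.45 in OPM2, a change of -0.55, and 11.23 against 10.42 in KMS11-labelled cells, a change of 0.81. Both genes thus crossed in direction between the lines by more than 1 log2 unit. CALR, the soluble lectin, read 16.13 against 16.61 in OPM2, a change of -0.48, and 17.11 against 16.78 in KMS11-labelled cells, a change of 0.33. PDIA3, which forms disulfides in the glycoproteins that CALR holds, read 14.51 against 14.95 in OPM2 and 15.49 against 15.40 in KMS11-labelled cells, changes of -0.44 and 0.09. DNAJC3 had -0.37 in OPM2 and 0.35 in KMS11-labelled cells, PDIA6 -0.35 and 0.17, CANX -0.28 and 0.11, and EDEM2 -0.32 and 0.15. DNAJB11 had -0.88 in OPM2 and 0.02 in KMS11-labelled cells by its brighter cluster, the widest OPM2 change of the 8 chaperones. Its dimmer cluster read 8.33 against 8.87 in OPM2 and 8.66 against 8.09 in KMS11-labelled cells. The mean of both clusters gave changes of -0.71 and 0.295. The opposite pattern, higher in OPM2 and lower in KMS11-labelled cells, was seen for 3 genes (8.82%), against 16.1% of all genes. HERPUD1 read 13.86 against 13.30 in OPM2, a change of 0.56, and 10.09 against 11.18 in KMS11-labelled cells, a change of -1.09, while DERL1 had 0.18 and -0.37. ATF6 read 14.07 against 13.83 in OPM2, a change of 0.24, and 13.35 against 13.77 in KMS11-labelled cells, a change of -0.42. Changes of at least 0.5 in opposite directions were seen for HSPA5, PDIA4 and HERPUD1 (3 of 34, 8.82%), against 1.62% of all genes. A share among genes readable in both lines was not computed. The count was 3 after cyclic loess and 2 under quantile normalization and median centring, where HERPUD1 had 0.44 and 0.40 in OPM2. The line-specific part of a response is the only residual of the fit, so these differences between lines were not tested.

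Set beside the promoter elements printed above, the 3 genes with an ERSE and a readable change in both lines, HSPA5, PDIA6 and CALR, read lower in OPM2, with log2 changes of -0.53, -0.35 and -0.48, and higher in KMS11-labelled cells, with 0.60, 0.17 and 0.33. These signs held under quantile normalization, median centring and cyclic loess. CRELD2 and ERO1B, which also hold an ERSE, had 0.05 and 0.07 in KMS11-labelled cells and no readable direction in OPM2. The 3 genes with an ERSE-II had no common direction: HYOU1 had -0.51 and -0.04, SDF2L1 -0.34 and 0.10, and HERPUD1 0.56 and -1.09. Of the 22 measured genes whose window held neither element, 5 read lower in OPM2 and higher in KMS11-labelled cells as deposited. All 22 had readable changes, and 24.1% of all genes readable in both lines went that way. Under quantile normalization, median centring and cyclic loess 9, 5 and 7 of the 22 did so. Shares of all genes, dim ones included, were 19.2% as deposited and 35.1%, 27.1% and 30.6% under these scalings. HSPA5, PDIA6 and CALR are folding genes by role, as are DNAJB11, DNAJC3, CANX and PDIA4 among the 5. Element and role can therefore not be told apart here. As deposited the 22 had medians of -0.35 in OPM2 and -0.11 in KMS11-labelled cells. The split by element rests on exact matches in 1 window a gene, so a gene without an element there may hold one at another start. It may also hold a near match in the window, as SEL1L does with a stretch 1 base off ERSE-II. The split is thus a split by exact letters. It was made after the changes were known and no test was run on it.

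**Figure D4:**
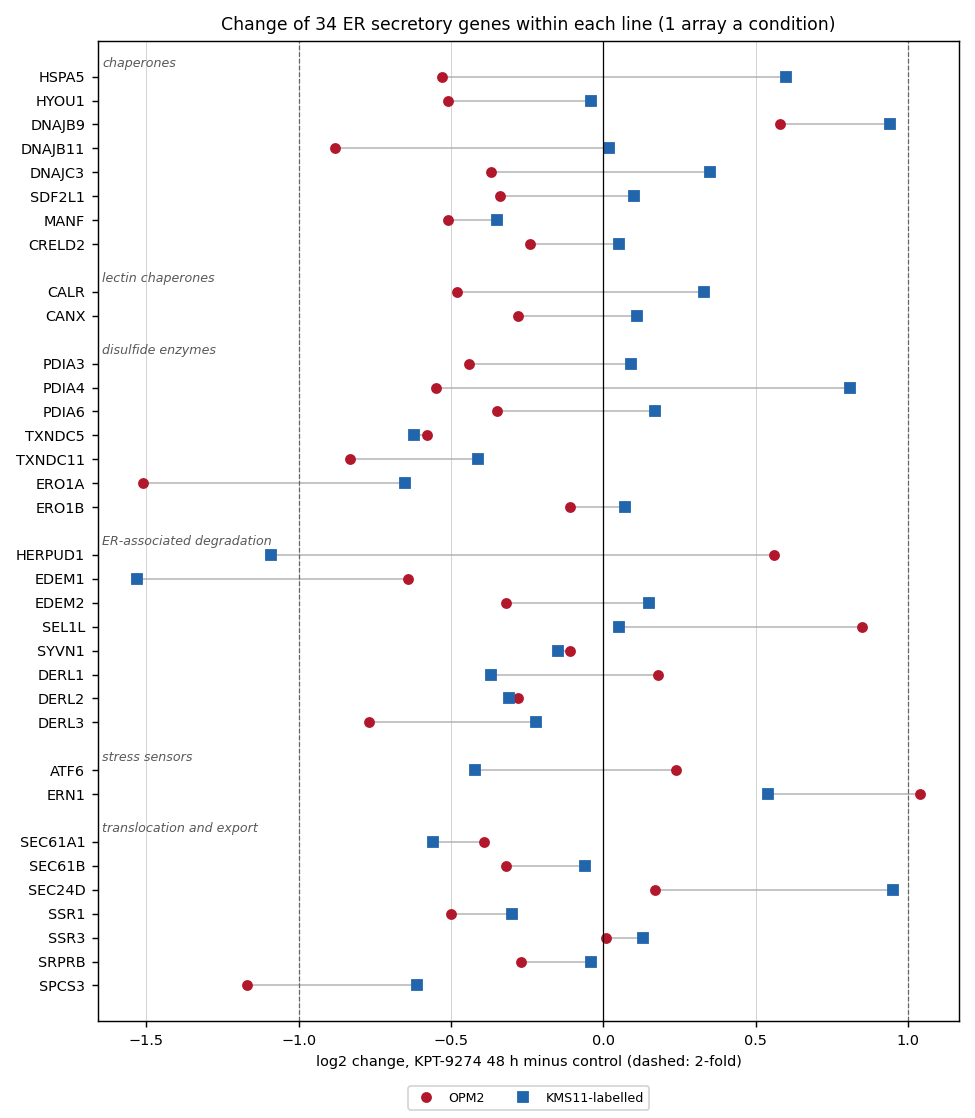
Log2 change after 48 h of KPT-9274 in OPM2 (circles) and in KMS11-labelled cells (squares), 1 array a condition, with dashed lines at 2-fold. For 5 of 8 chaperones and 4 of 7 disulfide enzymes the OPM2 point lies left of 0 and the KMS11-labelled point right of it. Among these, the OPM2 directions of CRELD2 and ERO1B are hidden by background. HERPUD1 lies the other way round, and ERO1A, SPCS3 and EDEM1 lie left of 0 in both.

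The regulators of the ER stress response, a list of 22 genes of which 21 were tested, had 8 genes higher in both lines (38.1%), against 34.9% of all genes, and 8 lower in both, against 27.9%. In OPM2, 3 were at least 2-fold higher, against 2.51% of all genes, and 3 lower, against 5.52%. In KMS11-labelled cells 2 were at least 2-fold higher, against 1.64%, and 4 lower, against 4.43%, with 0 past limma's test. XBP1, the factor that IRE1 activates by splicing, read 10.99 on the treated against 12.39 on the untreated OPM2 array and 10.35 against 11.49 on the KMS11-labelled arrays, log2 changes of -1.40 and -1.14. The array value is the sum of spliced and unspliced XBP1. CREBRF, which restrains the CREB3 family of membrane-tethered factors, read 11.24 against 7.16 in OPM2 and 11.40 against 7.90 in KMS11-labelled cells, changes of 4.08 and 3.50. PPP1R15A, the phosphatase subunit that reverses eIF2 alpha phosphorylation, had changes of 1.72 and 1.47. EIF2AK3, which encodes PERK, had 1.39 and 0.94, and the stress kinase MAP3K5 had -1.04 and -1.22. DDIT3, the CHOP factor, had -0.02 in OPM2 and 0.61 in KMS11-labelled cells, and ATF4 had 0.26 and -0.73. Adjusted p was at least 0.325 for every gene named here. Between lines, EIF2AK3 (1.80, adjusted p = 0.0188) and DDIT3 (1.16, adjusted p = 0.0498) were higher in OPM2 and MAP3K5 (-2.39, adjusted p = 0.0101) was lower.

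**Figure D5:**
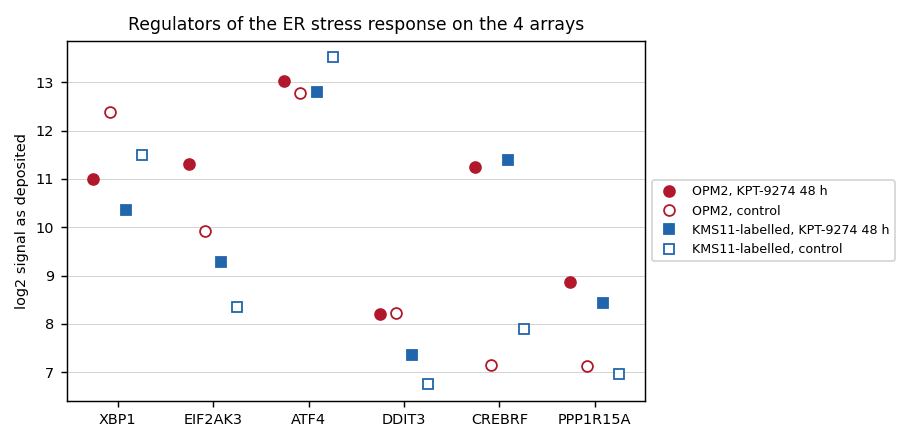
Log2 signal of 6 regulators of the ER stress response on the 4 arrays. XBP1 reads lower, and EIF2AK3, CREBRF and PPP1R15A higher, on the treated array of each line, while ATF4 and DDIT3 share no direction.

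The remaining genes of the secretory pathway gave the same count of treatment calls, 0 in each list. Among 29 other ER chaperones and folding enzymes the median log2 change was -0.38 in OPM2 and -0.04 in KMS11-labelled cells, with 14 lower in both lines (48.3%), against 27.9% of all genes and 43.4% of those readable in both lines, and 5 higher in both (17.2%), against 34.9%. The reductase DNAJC10 had -0.94 and -0.64, and TMX2 -0.65 and -0.96. Among 17 N-glycosylation genes 10 were lower in both lines (58.8%) and 0 higher in both, with medians of -0.41 and -0.25, MLEC, a lectin that reads early glycans, at -1.08 and -0.76, and UGGT2 lower by at least 0.71 and by 0.84. Among 24 ER export genes the medians were -0.09 and 0.28, with SEC16A, which organises ER exit sites, at -1.23 and -1.18. The 23 other degradation genes had medians of -0.16 and -0.03, with the ubiquitin-conjugating enzymes UBE2G2 at -0.91 and -0.81 and UBE2J2 at -0.51 and -0.57. The 26 other translocation genes had medians of -0.18 and 0.11, with CAMLG at 0.64 and 0.47 and TRAM2 at -0.69 and -0.40.

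Line calls in these lists are to be set against 8.28% of all genes higher and 10.8% lower in OPM2, and several shares were near these. All genes include many dim ones, and shares among genes of like signal were not computed. Of the 29 folding genes 5 were higher in OPM2 (17.2%) and 3 lower (10.3%), among them the plasma cell chaperone MZB1 (log2 difference 1.94, adjusted p = 0.0261), the BiP partner DNAJC1 (1.73, adjusted p = 0.0171) and CLGN, higher by at least 2.23 (adjusted p = 0.0151 for the unbounded difference). Of the 17 glycosylation genes 2 were higher (11.8%) and 5 lower (29.4%), RPN2 at 1.47 (adjusted p = 0.0235) and the catalytic subunit STT3A at -1.57 (adjusted p = 0.0177). Of the 23 degradation genes 4 were higher (17.4%) and 1 lower (4.35%), NPLOC4 at 1.37 (adjusted p = 0.0238). Of the 24 export genes 3 were higher and 3 lower (12.5% each), the cargo receptor LMAN1 at 1.13 (adjusted p = 0.0406) and its partner MCFD2 at -1.22 (adjusted p = 0.0480), beside SEC23B at -1.19 (adjusted p = 0.0410). Of the 26 translocation genes 5 were higher (19.2%) and 4 lower (15.4%).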

How the data were processed

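The authors deposited log2 signal per transcript cluster, for which the submitters' processing notes name the Transcriptome Analysis Console. How signals were summarised and normalized, and on which genome build, is not stated in the notes or headers. The values run between 2.49 and 19.74, from which the log scale was inferred. The table holds 65528 clusters on 4 arrays. Of these, 22755 had 1 gene symbol, 1389 several and 41384 none in the array's annotation, and symbols were updated with RefSeq (GRCh38.p14). The cluster with the highest mean stood for a gene, and the 25% of genes with a mean of at most 5.40 were left out. A linear model with line and agent was fitted to these log2 values with limma 3.58.1 in R 4.3.3. Tests were two-sided, with Benjamini-Hochberg over 16790 genes, a threshold of 0.05 and 1 residual degree of freedom. In data simulated with the moderated spread of this fit, 66.8% of 2-fold and 99.6% of 4-fold treatment changes were called. In the real data 0 genes were called for treatment, CREBRF with changes of 4.08 and 3.50 included. The simulated shares are therefore not read as the power here. Each line's arrays share its cells, so line is the block of the treatment contrast. A change with 1 value under background is given as a bound or, where the background hides its direction, as not readable; fits and medians use the values as deposited.

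The members, gene lists and tests were chosen with earlier results of these data known. Of each further list the text names genes 2-fold changed in both lines, else the 2 with the largest shared change, and up to 3 with the largest called line difference. ATF4, the changes of EIF2AK3 and DDIT3, and the paralogs were chosen after their values were seen. Alternatives were other normalizations, filters, cluster choices, prior and no block. The number of arrays limits the precision.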

Additional observations from a re-analysis of the deposited data

Results flagged for a closer look

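Among the 34 genes, 3 had changes of at least 0.5 log2 units in opposite directions in the 2 lines, against 1.62% of all genes. All genes include many dim ones, and a share among genes readable in both lines was not computed. The OPM2 change minus the KMS11-labelled change was -1.13 for HSPA5, -1.36 for PDIA4 and 1.65 for HERPUD1. Each line gives 1 pair of arrays, so the difference between the responses was not tested. The 3 genes kept their opposite signs under quantile normalization, median centring and cyclic loess. The OPM2 change of HERPUD1 fell under 0.5 with quantile normalization and with median centring, so 2 genes met the rule there.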

How the results depend on the processing

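The count of treatment calls stayed at 0 in each direction under all 8 alternatives run with a test. Of 68 member changes within a line, 62 kept their sign under the 3 other scalings and 6 small ones did not. Counts of at least 2-fold changes moved as follows: higher in OPM2, 0 under median centring, against 1; higher in KMS11-labelled cells, 2 under quantile normalization, 1 under cyclic loess, against 0; lower in KMS11-labelled cells, 1 under quantile normalization, against 2. Genes called lower in OPM2 than in KMS11-labelled cells numbered 5 under quantile normalization, 1 without a filter and 1 with a trended and robust prior, against 3, and those called higher ranged from 6 to 12. The cause was not tested. The line difference of CRELD2 turned to -0.0013 (quantile) and -0.0183 (cyclic loess), and that of DERL2 to 0.0088 under quantile normalization, none of them called. Without the replicate block, which here is the agent, ERN1 (adjusted p = 0.118), SEC61A1 (0.107) and SSR1 (0.0773) lost their line call. Leaving out one line or one agent gave median changes of -0.35 to -0.01 and median line differences of 0.25 to 0.53. Counts of signs and of readable directions were added after seeing the data.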

Other observations

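Several paralogs of the secretory pathway differed between the lines in unequal ways, a pattern picked out after the values were seen. SEC11C, a catalytic subunit of the signal peptidase, read 13.65 and 13.35 log2 units in OPM2, treated then untreated, against 8.12 and 7.70 in KMS11-labelled cells, a difference of 5.59 (limma SE 0.18, adjusted p = 0.00370). Its paralog SEC11A read 9.40 and 10.14 against 11.29 and 11.43, a difference of -1.59 (SE 0.23, adjusted p = 0.0273). TRAM2, a translocon-associated protein, read 13.31 and 14.00 in OPM2 against 9.99 and 10.39 (difference 3.47, adjusted p = 0.00660), while TRAM1 had 0.49 (adjusted p = 0.184). EDEM3 read 14.87 and 15.03 in OPM2 against 12.06 and 12.45 (difference 2.70, adjusted p = 0.00910), beside the EDEM1 and EDEM2 values that did not pass.

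The oxidoreductase subunit TUSC3 was not above background on either OPM2 array and lower there by at least 2.99 (adjusted p = 0.00598 for the unbounded difference), while its paralog MAGT1 had -0.10 (adjusted p = 0.827). UBE2J1 had a difference of 1.76 (adjusted p = 0.0315) and UBE2J2 -0.09 (adjusted p = 0.747). EMC2, a subunit of the membrane insertase complex, was higher in OPM2 by 2.02 (adjusted p = 0.0145). Some pairs shared a direction. STT3A and STT3B were both lower in OPM2, by limma differences of -1.57 and -1.19 (adjusted p = 0.0177 and 0.0274). SEC61A1 and SEC61A2 were both higher, by 0.90 and 1.33 (adjusted p = 0.0477 and 0.0332). Differences between paralogs were not tested against each other.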
